A study of Mus musculus with 48 samples.

Results

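The regions described here are stretches of the mouse genome in 5'UTRs, the part of an mRNA between its start and its start codon, where an m6A peak was found in some animals and not in others. Peaks of all 24 animals were joined wherever they shared at least 1 bp, which gave 81807 regions. Of these, 39806 were variable, meaning that a peak was called in 3 to 23 animals, and those with their midpoint in a 5'UTR of a protein-coding gene, and in no CDS or 3'UTR, are the members: 2163 in 5'UTRs of 1 strand and 18 in 5'UTRs of genes on both strands. The members were therefore selected on the number of animals with a call, and that number is given only as a description. They were drawn from 3692 5'UTR regions, of which 394 were called in all 24 animals and 1117 in 1 or 2. The members lay in 2081 genes, and 1959 of these genes had a single member.

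MeRIP-seq (immunoprecipitation of fragmented RNA with an antibody against m6A, followed by sequencing beside the input RNA) was done on the hippocampus of 24 male mice, bred as littermates of both genotypes on a C57BL/6 background. WT mice (HdhQ7/7) were compared with knock-in mice (HdhQ7/Q111, also written Hdh+/Q111, here KI), heterozygotes in which a long CAG repeat was targeted into the mouse huntingtin gene. Mice were 5 or 8 months old and either naive or trained, that is, killed 30 min after exploring objects in the object location task. Each of the 8 conditions held 3 animals, and every replicate was a different animal. The label of the tissue was checked against genes typical of hippocampal neurons: each animal had a region in 15 to 18 of 20, and in 1 to 8 of 10 genes of the choroid plexus, a neighbouring tissue. A missing call does not show missing m6A, and a difference in calls cannot be told apart from a difference in the amount of mRNA, because the input libraries were not analysed here.

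m6A is placed on mRNA by the METTL3/METTL14 methyltransferase at sites of the DRACH type, of which GGAC is a common core, and is read by YTH proteins. Most m6A lies near stop codons and in 3'UTRs, while m6A in 5'UTRs has been linked to translation that does not need the cap. Antibodies against m6A also bind m6Am, a methylated adenosine next to the cap that PCIF1 makes, so a peak at the very start of a transcript can come from either mark.

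The members lay near the start of transcripts, which follows in part from the rule that puts their midpoint in a 5'UTR. The 5'UTRs of the transcripts with the nearest start had a median length of 340 bases. Whether members lie nearer the start than other positions of 5'UTRs was not tested. The summit of a member, taken as the median over animals of the base with the highest enrichment, lay a median genomic distance of 180 bp downstream of the nearest start of its annotated transcripts, with quartiles at 105 and 350 bp, and 465 (21.3%) lay within 100 bp of a start. The midpoint was in the first exon in 1904 members (87.3%), and 1178 (54.0%) reached across a start codon. Regions were 457 bp long at the median. Peaks carried no strand, and 18 members lay in 5'UTRs of genes on both strands, so these 18 entered no count of motifs. In a window of 100 bp centred on the summit, GGAC stood on the transcribed strand in 46.0% of the other 2163 members and on the opposite strand in 36.0%.

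The sites below are the GGAC nearest to the summit, in capitals, with 10 bases on each side, read 5' to 3' on the transcribed strand from mm9. They are shown for 7 of the members ranked highest by Fisher's exact test, 4 in each direction of genotype, training and age. Not all of these passed the test before adjustment. Others are examples, named below for their enrichment or for a call in every animal of 1 condition and none of another.
Rragd: ggcccacgcgGGACcttggaggca
Prdm8: ttctctctttGGACagaacccaca
Mettl11b: atgggacctgGGACtggtttaaaa
Slitrk6: ggggagaaagGGACtctggcttca
Cab39: tgcgggcggaGGACaacggagggc
Mgat4a: ttttggcccgGGACcaaggcgttc
St3gal3: gccgcgctggGGACcaaagcccgg
Leng1: ggctaggatgGGACgtgacaattg
Zfp36l1: ccccgcaccgGGACcttcacgaca
Notch1: atcagagggtGGACgcctgcggga
Pde1c: tcactgggctGGACccagcaagga
Dmrta2: ccggggtgttGGACtgctgtgttc

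The Prdm8 site, chr5:98609983-98610006 on the plus strand, had its GGAC 1 bp from the summit, and the Dmrta2 site, chr4:109650759-109650782 on the plus strand, 3 bp from it. The Zfp36l1 site lay at chr12:81213901-81213924 on the minus strand and the Rragd site at chr4:33070402-33070425 on the plus strand, 4 and 22 bp from the summit. The other sites were chr1:165655285-165655308 (Mettl11b, minus), chr14:111154094-111154117 (Slitrk6, minus), chr1:87690261-87690284 (Cab39, plus), chr1:37593061-37593084 (Mgat4a, minus), chr4:117807245-117807268 (St3gal3, minus), chr7:3617159-3617182 (Leng1, minus), chr2:26359164-26359187 (Notch1, minus) and chr6:56311903-56311926 (Pde1c, minus). Of the 24 members ranked highest for a factor, 23 lay on 1 strand, and 8 of these 23 held a GGAC in their window, of which 1 is not printed. A match is a description of the letters and not a mapped m6A site.

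Peaks at members were stronger and richer in GC than those of variable regions elsewhere in mRNA. Per animal, the median fold enrichment of IP over input at the summit averaged 4.15 ± 0.516 (SD, n = 24) for members and 3.79 ± 0.253 for variable CDS regions, and members were higher in 21 of 24 animals (difference 0.366, sign permutation test, adjusted p = 8e-05). Against variable 3'UTR regions, at 3.81 ± 0.147, members were higher in 18 of 24 animals (difference 0.348, permutation, adjusted p = 0.0004). The GC content of the summit windows had a median of 65.6% ± 3.12 in members, above the 55.5% ± 1.38 of CDS and the 49.5% ± 1.56 of 3'UTR regions in 24 of 24 animals each (permutation, adjusted p = 5.33e-05 for both, each from an unadjusted p of 2e-05). GGAC was found in 46.6% ± 1.37 of the summit windows of members per animal, 3.02 percentage points more than in CDS regions in 24 of 24 animals (permutation, adjusted p = 5.33e-05) and 2.84 points more than in 3'UTR regions in 22 of 24 (permutation, adjusted p = 9.6e-05). On the opposite strand of the member windows GGAC was found in 34.5% ± 2.35, lower than on the transcribed strand in 24 of 24 animals. Peak length differed by less than its spread, by 0.354 bp ± 14.2 from CDS regions (permutation, adjusted p = 0.913) and by -5.58 bp ± 18.5 from 3'UTR regions, with members longer in 5 of 24 animals (permutation, adjusted p = 0.179). These 8 comparisons were adjusted together, and GC content was not held equal between the classes, so its part in the difference in GGAC was not tested.

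**Figure D1:**
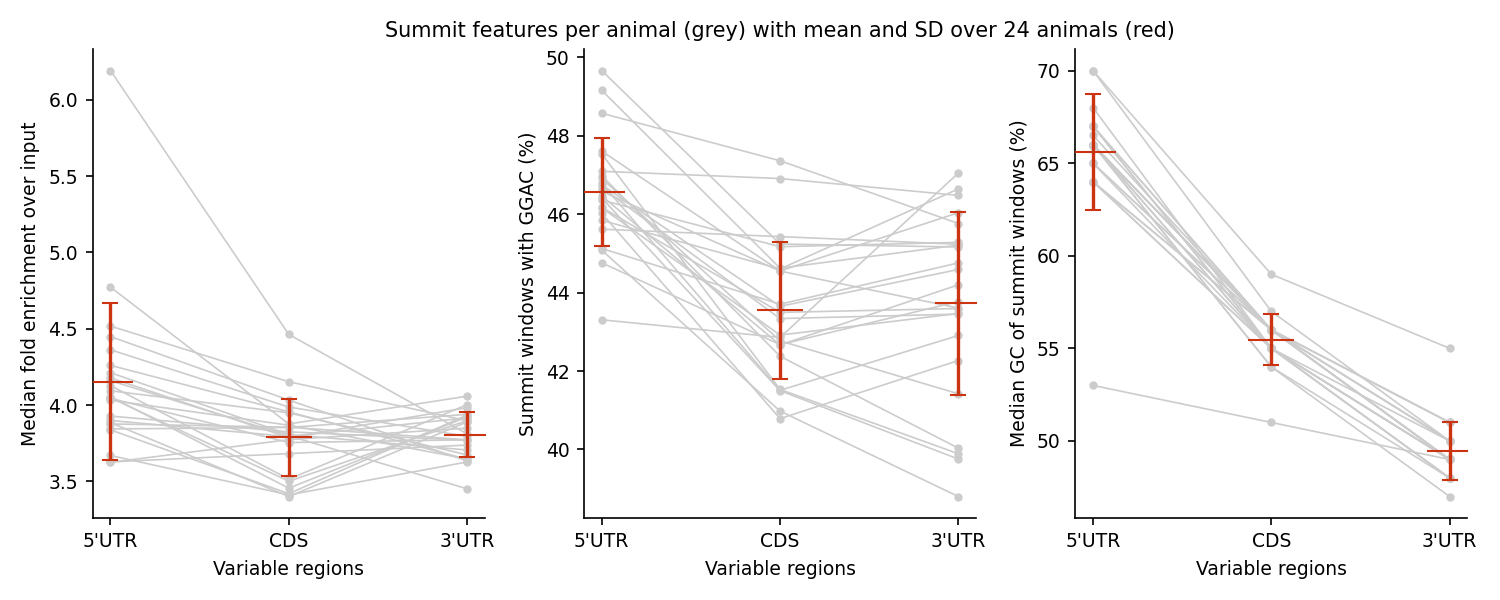
Median fold enrichment over input, share of 100 bp summit windows with GGAC (%) and median GC of the windows (%) for variable regions in 5'UTRs, CDS and 3'UTRs; each grey line is 1 animal, and red marks are the mean and SD over 24 animals. The 5'UTR means of 4.15, 46.6% and 65.6% lie above those of both other classes, and 1 animal has a 5'UTR GC far below the rest.

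Members were called in a median of 11 animals, against 8 for variable CDS regions and 12 for variable 3'UTR regions. They fell toward both ends of the range: 576 (26.4%) were called in 3 to 5 animals and 308 (14.1%) in 23. The 237 members called in 3 animals had a median fold enrichment of 4.03 and the 347 regions just outside the range, called in 2, one of 4.21. At the other end the 308 members called in 23 animals had a median fold of 4.57 and a median GC of 68%, and the 394 regions called in all 24 a fold of 5.13 and a GC of 54%. Of these 308, 249 were missed only by animal Ctrl-2199-WT, described below, and these 249 had a median GC of 70%. The contrast in GC between 23 and 24 animals cannot be told apart from the missing calls of that animal. GGAC was found in 44.5% of members called in 3 to 5 animals, 43.1% at 6 to 12, 46.5% at 13 to 19 and 50.3% at 20 to 23. Joined regions grow with the number of peaks joined, and their median length went from 306 bp at 3 to 5 animals to 746 bp at 20 to 23.

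**Figure D2:**
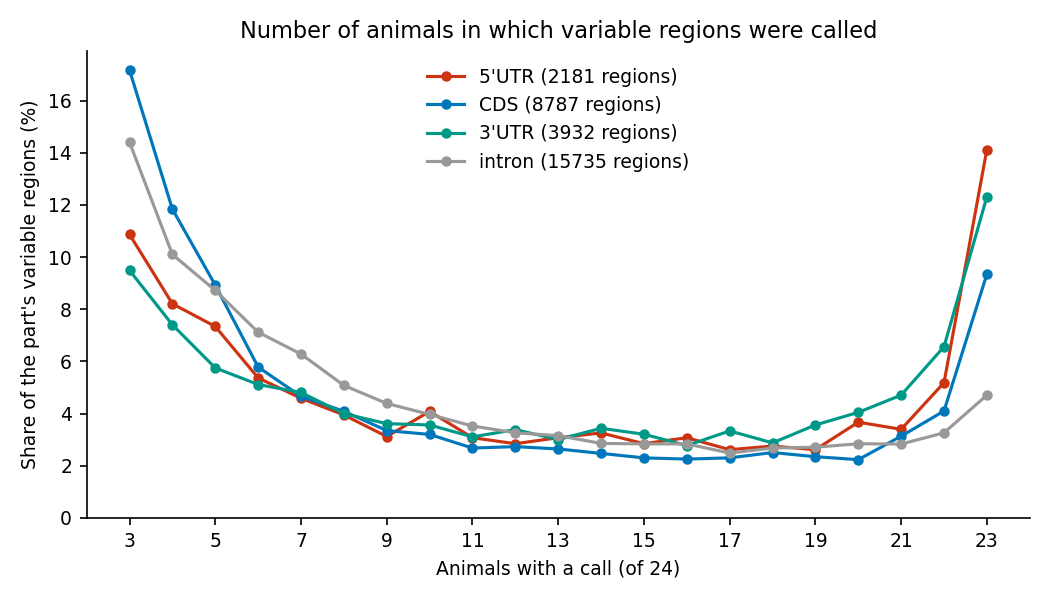
Share of the variable regions of each mRNA part (%) by the number of animals, of 24, with a call. The 5'UTR line ends with 14.1% of its regions at 23 animals, above 3'UTR, CDS and intron, and most of that last point is missed by the same animal.

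The libraries differed, and 1 stood apart. Animals had 22601 to 57293 peaks, and read depth is not given in the files used here. Animal Ctrl-2199-WT, a naive WT mouse of 5 months, had 32487 peaks in all but only 257 member calls, where the other 23 animals had 599 to 1861. Of the 308 members called in 23 animals, 249 were missed by animal Ctrl-2199-WT alone, and the next most frequent absentee, trained WT animal TR-2209-WT of 5 months, was alone in missing 29. It was also low in variable CDS regions, of which it had 25.7% against a median of 40.8% per animal, and it alone missed 390 of the 821 CDS regions (47.5%) called in 23 animals. Of variable 3'UTR regions it had 46.4%, against a median of 56.1% per animal, and it alone missed 67 of the 484 (13.8%) called in 23. Its member windows had a median GC of 53% and none reached 70%, with a maximum of 65%, while the other animals had medians of 64% to 70% and 206 to 616 windows above 70%. With members classed by the GC of the window on their median summit, animal Ctrl-2199-WT had a call at 35.3% of the 258 members of under 50% GC, at 25.7% of those from 50% to under 60%, at 5.95% of those from 60% to under 70% and at 3 of 798 (0.376%) of those of 70% and over. In the other animals the last class was called in 28.9% to 84.8%. Members without a call in it had a higher GC (median 67%) than those with one (53%). Trained KI animal TR-2202-KI of 5 months leaned the other way, with a call at 41.1% of the members of under 50% GC and 81.1% of those of 70% and over, and a median member fold of 6.19, against 3.63 to 4.77 in the rest. The main comparisons of conditions that include animal Ctrl-2199-WT are given with and without it.

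**Figure D3:**
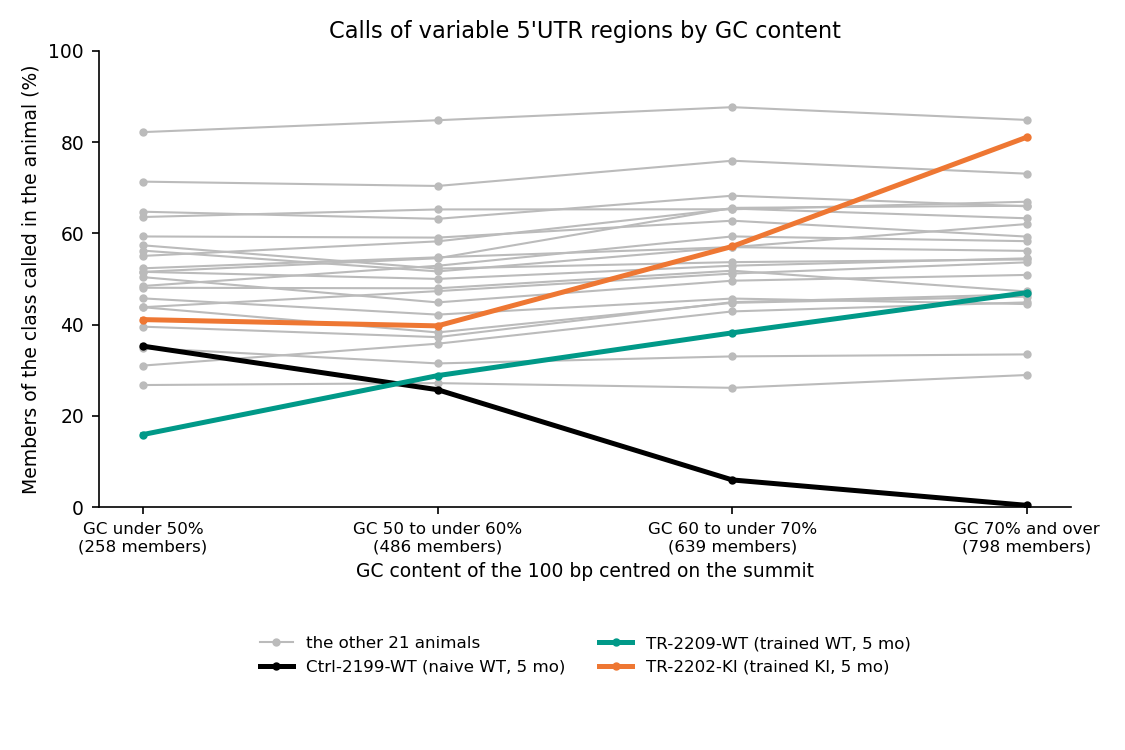
Share of the members of each GC class (%) that were called in each of 24 animals, with 1 line per animal. Animal Ctrl-2199-WT falls from 35.3% in the lowest GC class to 0.376% in the highest, while animal TR-2202-KI climbs from 41.1% to 81.1%, and animal TR-2209-WT climbs from 15.9% to 47.0%.

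The number of members called was higher in KI than in WT mice and at 8 than at 5 months, in step with the number of peaks. In naive WT mice of 5 months 1149, 257 and 721 members were called, and in naive KI mice of that age 1255, 1213 and 953. Trained WT mice of 5 months had 886, 800 and 599, all below the 1065, 1311 and 1178 of trained KI mice. At 8 months naive WT mice had 942, 1436 and 1344, and naive KI mice 1594, 1348 and 1861, the highest mean of the 8 conditions, although 2 WT animals of 8 months lay above its lowest. Trained WT mice of 8 months had 970, 1314 and 1432 and trained KI mice 1071, 1226 and 1098, so that these groups overlapped, with the higher mean in WT mice.

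Over all conditions KI mice had 1264 ± 249.9 members (SD, n = 12) and WT mice 988 ± 365, a difference of 277 (exact permutation within age and training, 160000 arrangements, two-sided p = 0.0142, adjusted p = 0.0425 over 6 tests). Without animal Ctrl-2199-WT the difference was 220 (exact permutation p = 0.0272). Mice of 8 months had 1303 ± 266 and those of 5 months 949 ± 313, a difference of 354 (exact permutation p = 0.00298, adjusted p = 0.0179), which was 298 without animal Ctrl-2199-WT (exact permutation p = 0.0065). Trained mice, with 1079 ± 238, and naive mice, with 1173 ± 419, had a difference of -93.6, within their spread (exact permutation p = 0.374), which was -150.1 without animal Ctrl-2199-WT (exact permutation p = 0.117). Of 12 pairs of single conditions none can pass, since 3 against 3 animals give no exact permutation p under 0.1.

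These counts moved with the yield of a library. Members called correlated with the number of peaks over 24 animals (r = 0.782, permutation p = 1e-05, rho = 0.828, permutation p = 1e-05, adjusted p = 2.67e-05 and 4e-05 over 8 relations, r = 0.664 without the 2 animals farthest from the median, r = 0.880 without animal Ctrl-2199-WT), a relation in which the counts are part of the peaks. It held within 8 months (r = 0.932, rho = 0.916, n = 12, adjusted permutation p = 2.67e-05 and 0.000267) and was weaker within 5 months (r = 0.533, rho = 0.615, n = 12, adjusted permutation p = 0.149 and 0.075). When each animal kept only its best 22601 peaks by p-value, as many as the shortest list has, the KI excess was 42.9 members (exact permutation p = 0.513) the excess at 8 months 87.1 (exact permutation p = 0.199), and trained mice had 58.8 more than naive mice (exact permutation p = 0.379), with the sign turned.

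As a share of the variable regions called in the same animal, members did not differ past the test for any factor. They made up 6.36% ± 0.615 in KI and 6.23% ± 1.94 in WT mice (exact permutation p = 0.797), a difference of 0.138 points that became -0.171 without animal Ctrl-2199-WT. Trained mice had 6.71% ± 1.35 and naive mice 5.88% ± 1.4 (exact permutation p = 0.197; 0.520 points higher in trained mice without animal Ctrl-2199-WT, p = 0.408 by the same exact test). At 8 months the share was 6.54% ± 0.383 and at 5 months 6.05% ± 1.97 (exact permutation p = 0.439; 0.173 points higher at 8 months without animal Ctrl-2199-WT, p = 0.745 by the same exact test). The spread at 5 months was wide, from 1.83% in animal Ctrl-2199-WT to 10.3% in animal TR-2209-WT, which had only 7803 variable regions, while at 8 months all 12 animals lay between 6.05% and 7.16%. Among members of up to 60% GC, the share was 0.239 points higher at 8 than at 5 months (exact permutation p = 0.00435), an alternative chosen after the data were seen.

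The change with training was then compared between the genotypes, and none of 4 tests passed after adjustment. KI mice had a change of -469 members from naive to trained at 8 months and WT mice of -2, and the difference between these changes was -467 by exact permutation (400 arrangements, exact p = 0.15), while at 5 months it was -8.33 (exact permutation p = 0.985; 218 without animal Ctrl-2199-WT, p = 0.35). The share at 8 months was 0.331 points higher in trained than naive KI mice and differed by -0.674 points between trained and naive WT mice, a difference of 1.01 points (exact permutation p = 0.025, adjusted p = 0.1). The share at 5 months gave a difference of -2.68 points (exact permutation p = 0.325; -1.45 without animal Ctrl-2199-WT, p = 0.62).

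**Figure D4:**
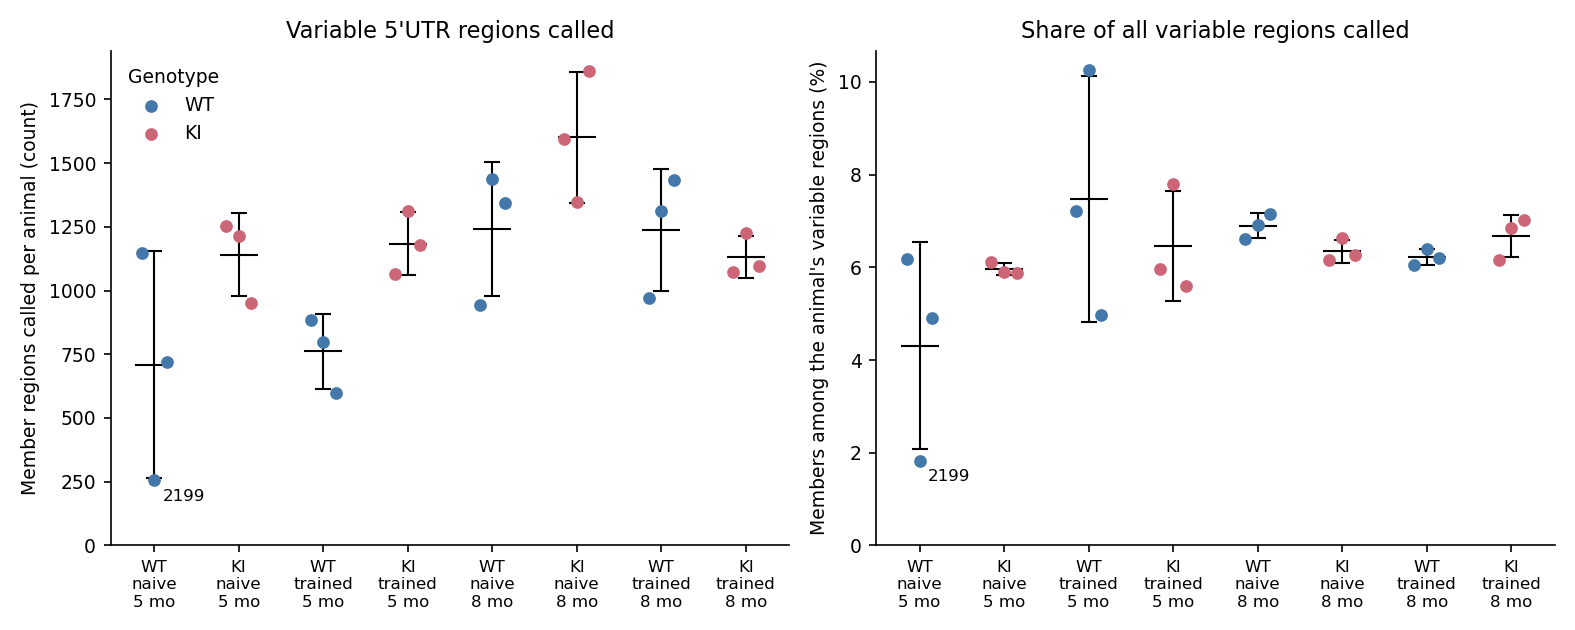
Members called per animal (count, left) and their share of the variable regions called in the same animal (%, right) in the 8 conditions; points are animals, bars the mean and bars with caps the SD (n = 3). Naive KI mice of 8 months have the highest mean count, 1601, and animal Ctrl-2199-WT the lowest in both panels, 257 and 1.83%.

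Counting a member as reproducible in a condition when at least 2 of 3 animals had it, 492 members were reproducible in all 8 conditions, 275 in none and 401 in exactly 1. Naive KI mice of 8 months held 1660 reproducible members (76.1%) and 248 of the 401 found in a single condition. Its animals had 37948 to 57293 peaks, and the part of this yield in the 248 was not tested. Naive WT mice of 8 months held 1203, trained WT mice of 8 months 1201, trained KI mice of 5 months 1148, naive KI mice of 5 months 1086, trained KI mice of 8 months 1074, naive WT mice of 5 months 715 and trained WT mice of 5 months 708.

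Single members were then compared between 12 and 12 animals by Fisher's exact test (two-sided) of animals with a call against animals without, over all 39806 variable regions, with Benjamini-Hochberg adjustment over them. After adjustment 0 members passed for genotype, training or age, where over all variable regions 1 passed for genotype (0.00251%), 0 for training (0%) and 0 for age (0%). The smallest adjusted p of a member was 1 for genotype and training and 0.213 for age. Before adjustment, 57 members (2.61%) passed an exact p = 0.05 with more calls in KI mice and 1 with more in WT mice, where 1.52% and 0.0603% of all variable regions did. For training, 1 member passed with more calls in trained and 16 (0.734%) with more in naive mice, against 0.113% and 1.15% of all variable regions. For age, 162 (7.43%) passed with more calls at 8 months and 1 with more at 5 months, against 7.82% and 0.827%. Without animal Ctrl-2199-WT these counts were 66 for KI and 3 for WT, 1 for trained and 43 for naive, and 170 for 8 and 3 for 5 months, where 2.23%, 0.148%, 0.146%, 2.42%, 8.66% and 1.21% of all variable regions passed. Leaving out any 1 animal makes the groups unequal, which changes the splits that reach p = 0.05 by Fisher's exact test. It gave 62 to 113 for KI, 18 to 43 for naive and 170 to 260 for 8 months, all above the main counts. A rise due to this animal cannot be told apart from that change. With equal numbers of best peaks, which left 1544 members, the counts were 13 for KI and 3 for WT, 12 for trained and 4 for naive, and 39 for 8 and 8 for 5 months, where 0.479%, 0.408%, 0.486%, 0.452%, 2.56% and 2.61% of all variable regions passed, so that the order of trained and naive mice was turned. By GC, 30 of the 57 members with more calls in KI mice were among the 798 of 70% and over, and 36 of the 162 with more at 8 months.

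Among the members with more calls in KI mice, the smallest p belonged to Wdr33, whose protein is part of the complex that cuts and polyadenylates mRNAs, and Rragd, a Rag GTPase that carries amino acid signals to mTORC1. Wdr33 was called in 11 of 12 KI animals with a fold enrichment of 2.3 to 6.73 (median 4.27) and in 1 of 12 WT animals, at 3.19 (Fisher's exact p = 0.000107, adjusted p = 1). Rragd (ENSMUSG00000028278, chr4:33070042-33070569, first exon) was called in 11 KI animals at 1.76 to 19.6 (median 2.62) and in 1 WT animal at 2.3, with the same p. Its highest value, 19.6, came from animal TR-2202-KI, and the next was 8.27. Both members were thus called in nearly every KI animal of either age and training, and the 2 WT calls came from trained mice.

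Rab5a (chr17:53618467-53618894), the small GTPase of early endosomes, was called in 8 KI animals at folds of 1.83 to 3.36 (median 2.15) and in 0 WT animals (Fisher's exact p = 0.00135, adjusted p = 1). Prdm8 (chr5:98609761-98610050), a transcriptional repressor of neural development, was called in all 12 KI animals at 2.65 to 11.8 (median 3) and in 4 WT animals at 4.27 to 6.35 (median 5.24), with the same p. Where Prdm8 was called in WT animals its fold was no lower than the KI median, so the groups differed in calls and overlapped in fold.

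Calls more frequent in WT mice were rare. Tm4sf1 (chr3:57098687-57098971) was called in 5 WT animals, 3 of them trained mice of 8 months, at 3.48 to 7.04, and in 0 KI animals (Fisher's exact p = 0.0373, adjusted p = 1). The other members ranked in this direction did not pass before adjustment: Enpep, a peptidase that cleaves angiotensin II, with 10 WT against 5 KI animals, Mettl11b with 12 against 8, and Slitrk6, a transmembrane protein of neurons, with 4 against 0 (Fisher's exact p = 0.0894, 0.0932 and 0.0932).

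With training, 1 member passed p = 0.05 with more calls in trained mice: Cab39 (chr1:87689872-87690397), whose protein MO25 supports the kinase LKB1, was called in 10 trained and 4 naive animals (Fisher's exact p = 0.0361, adjusted p = 1). Its folds were low, 1.78 to 4.44, except in animal TR-2202-KI, at 25.3. Sdf2l1 and Plekhm3 were called in 4 trained and 0 naive animals each, and 4933407H18Rik in 12 and 8 (Fisher's exact p = 0.0932 for each). In the other direction Fam122b (chrX:50622196-50622652) was called in 7 naive animals, 4 KI and 3 WT, at 3.31 to 5.92 and in 0 trained animals (Fisher's exact p = 0.00458, adjusted p = 1). Cdc25a, a phosphatase that activates cyclin-dependent kinases, Mgat4a, a glycosyltransferase of N-glycan branching, and Itga8, an integrin chain, were each called in 6 naive and 0 trained animals (Fisher's exact p = 0.0137). These naive calls came from both genotypes and both ages, other than for Cdc25a, which was called in 0 naive WT mice of 8 months, and Mgat4a, in 0 naive KI mice of 5 months.

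Age gave the smallest p of the members. Inpp1 (chr1:52856165-52856512), an inositol polyphosphate phosphatase that lithium inhibits, was called in 10 of 12 animals of 8 months at 2.45 to 7.77 (median 2.9) and in 0 of 12 at 5 months (Fisher's exact p = 6.73e-05, adjusted p = 0.213). The 8-month calls were split evenly between the genotypes, 5 and 5, and between trained and naive mice, 5 and 5. St5 (chr7:116759836-116760207), the region shared by Mcm3ap and Ybey on opposite strands of chromosome 10, and Furin (chr7:87543549-87544010), a convertase that cleaves proproteins, were each called in 8 animals of 8 months and 0 of 5 months (Fisher's exact p = 0.00135, adjusted p = 0.263). Furin was called at folds of 2.15 to 4.33, Mcm3ap/Ybey at 2.32 to 8.99 and St5 at 2.62 to 8.28. Pkdcc, a secreted kinase, was called in 5 animals of 5 months and 0 of 8 months (Fisher's exact p = 0.0373, adjusted p = 0.453). Chn2, a GTPase-activating protein for Rac, with 11 animals of 5 months against 6, Ncapd3, a condensin subunit, with 6 against 1, and St3gal3, a sialyltransferase, with 4 against 0, did not reach p = 0.05 (Fisher's exact p = 0.0686, 0.0686 and 0.0932).

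**Figure D5:**
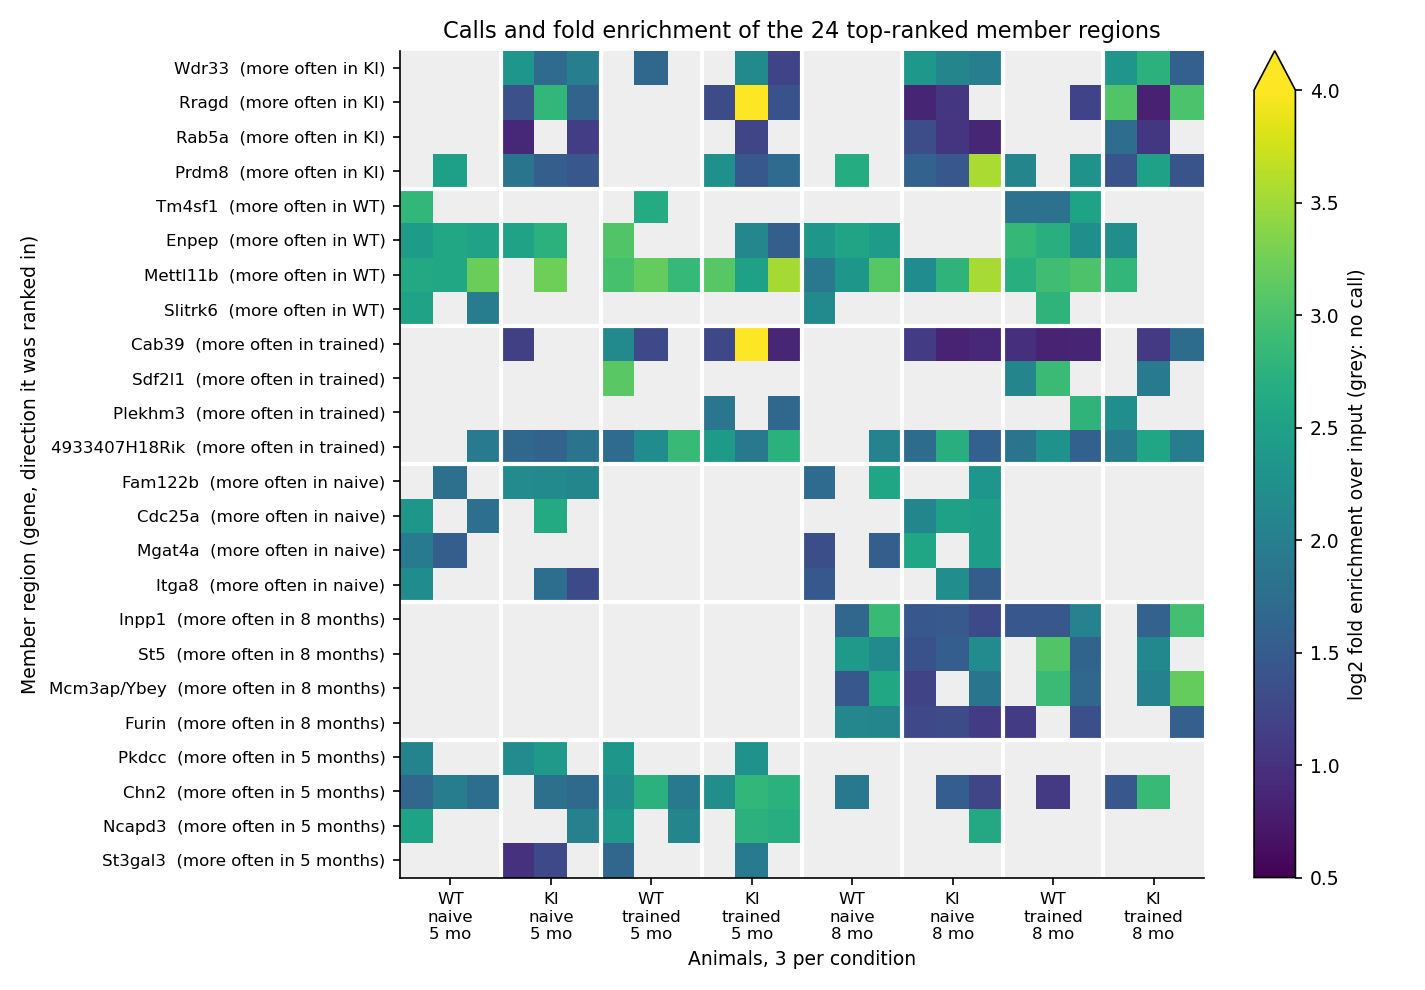
Calls of the 24 members ranked highest for genotype, training and age, 4 in each direction, in 24 animals grouped by condition; colour gives the log2 fold enrichment over input and grey means no call. Wdr33 and Rragd each have 11 KI calls and 1 WT call, and Inpp1 is called in 10 of 12 animals of 8 months and 0 of 12 of 5 months.

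Members called in all 3 animals of a condition and in none of another were then counted for each pair of conditions that differ in 1 factor. Naive KI against naive WT mice of 5 months gave 37 (1.70%, where 0.965% of all variable regions did so) and the reverse 0 (0.163% of all). Without animal Ctrl-2199-WT these were 45 (2.06%, against 1.71% of all) and 4 (0.183%, against 0.791% of all). Naive WT mice of 5 months then numbered 2, and the rule asked for calls in 2 of 2 or 0 of 2. Counts could thus only stay the same or rise. Leng1 had the highest fold among the 37. It was called in every animal of 7 conditions at 4.82 to 9.38 and in none of the 3 naive WT mice of 5 months, so it also led the comparisons of that condition with trained WT mice of 5 months and with naive WT mice of 8 months. Trained KI against trained WT mice of 5 months gave 51 (2.34%, against 2.17% of all), led by Tead1, a transcription factor of the Hippo pathway, and the reverse 1 (against 0.0327%), Scnn1a, a subunit of the epithelial sodium channel. At 8 months, naive KI against naive WT mice gave 39 (1.79%, against 1.88%), led by Zfp36l1, which directs the decay of AU-rich mRNAs, and the reverse 2 (against 0.0628%), led by Enpep. Trained KI against trained WT mice of 8 months gave 7 (against 0.163%), led by Mospd3, and the reverse 12 (against 0.781%), led by Edc3, an enhancer of mRNA decapping. Summed over these 4 pairs, the counts were 134 for calls in all KI and no WT mice and 15 for the reverse. A member that met the rule in several pairs, such as Wdr33, entered once for each. The mean was 1.54% and 0.172% a pair, against 1.29% and 0.260% of all variable regions. With equal numbers of best peaks the sums were 48 and 29, or 0.777% and 0.470% against 0.560% and 0.484% of all.

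For training, trained against naive KI mice of 5 months gave 7 members (0.321%, against 0.422% of all variable regions), led by the receptor Notch1. The reverse gave 12 (0.550%, against 0.518%), led by the mitochondrial carrier Slc25a35. Trained against naive WT mice of 5 months gave 4 (0.183%, against 0.0553%) and the reverse 8 (0.367%, against 1.21%), led by Lingo2. Without animal Ctrl-2199-WT, where 2 of 2 naive WT mice were enough and counts could only stay or rise, the counts were 6 (0.275%, against 0.128% of all variable regions) and 45 (2.06%, against 3.38%). At 8 months, 0 members were called in all trained and no naive KI mice (against 0.0653%). In all naive and no trained KI mice 50 were called (2.29%, against 2.44%), led by Pde1c, a phosphodiesterase that breaks down cyclic nucleotides. Trained against naive WT mice of 8 months gave 6 (0.275%, against 0.761%), led by Bmp7, and the reverse 12 (0.550%, against 0.244%), led by Rab23. Over the 4 pairs the counts summed to 17 for calls in trained mice and 82 for calls in naive mice, with a member counted once per pair. The mean was 0.195% and 0.940% a pair against 0.326% and 1.10% of all variable regions. With equal numbers of best peaks the sums were 34 and 23, which turned the order, or 0.551% and 0.372% against 0.537% and 0.496% of all.

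For age, 8 against 5 months gave 75 members in naive KI mice (3.44%, against 3.58% of all variable regions) and the reverse 2 (0.0917%, against 0.51%). Plxna1, a semaphorin receptor, led the 75, and Coro1a, an actin regulator, the reverse. In naive WT mice 44 (2.02%, against 0.867%) were called at 8 and not at 5 months. The reverse gave 2 (0.0917%, against 0.739%), led by Fam69c. Without animal Ctrl-2199-WT, under the same looser rule of 2 animals, these were 53 (2.43%, against 1.24% of all) and 8 (0.367%, against 1.86% of all). Trained KI mice gave 7 (0.321%, against 0.46%), led by Scnn1a, and the reverse 8 (0.367%, against 1.22%), led by the thiamine transporter Slc19a2. Trained WT mice gave 67 (3.07%, against 3.09%), led by Edc3, and the reverse 1 (0.0459%, against 0.0301%), Zdhhc4. Over the 4 pairs the counts summed to 193 for calls at 8 months and 13 for calls at 5 months, with a member counted once per pair. The mean was 2.21% and 0.149% a pair against 2.00% and 0.624% of all variable regions. With equal numbers of best peaks the sums were 71 and 30, or 1.15% and 0.486% against 0.872% and 0.911% of all. Without animal Ctrl-2199-WT, again under the looser rule for its condition, the sums were 142 and 19 for genotype, 19 and 119 for training and 202 and 19 for age.

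The members with the highest enrichment were called in nearly every animal. Dmrta2, a transcription factor of the developing cortex, had a median fold of 13.1 over 23 animals, from 4.15 to 24.7. Slc22a15 had 12.4, Fam129b 11.8 and Gm10742 10.4, also over 23 animals, and the animal without a call was Ctrl-2199-WT for each of the 4. Plxna1, at 10.3, was called in 7 animals only, 6 of them KI and 6 of 8 months, with folds of 3.38 to 12.2.

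A member lay in 15.2% of the 13663 protein-coding genes with any region, which is the background for the marker lists of cell types below. The other lists are given over all their genes, with or without a region, so their shares stand on a different base. Gene length and mRNA level were not held equal, so shares of list genes are descriptions. Genes of 20 lists chosen for this tissue and question held 169 members in 148 of their 571 genes. Of these 169, 14 (8.28%) passed an exact p = 0.05 before adjustment with more calls at 8 months, 3 with more in KI mice and 1 with more in naive mice, and 0 in the opposite directions. These shares stand beside the 7.82%, 1.52% and 1.15% of all variable regions, and no member of a list passed after adjustment.

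Among the genes of the m6A machinery 5 of 25 had a member. The reader Ythdf3 (chr3:16083014-16083490), which helps translation and decay of m6A-marked mRNA, was called in all 12 KI animals and 6 of 12 WT animals (Fisher's exact p = 0.0137, adjusted p = 1), at folds of 1.83 to 5.46. The 6 WT animals without a call were all 3 naive and 2 trained mice of 5 months and 1 naive mouse of 8 months. The nuclear reader Ythdc1 was called in 22 animals, the FMRP relative Fxr2 in 12, the m6Am writer Pcif1 in 5 and the reader Ythdf2 in 4, with none past an exact p = 0.05 for any factor.

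Immediate-early genes, which neurons switch on within minutes of activity, held 16 members in 13 of 40 genes, and 2 passed an exact p = 0.05 for age and 0 for training or genotype. Nr4a3 was called in 23 animals near its start (chr4:48057895-48058558) and in 6 animals, all of 8 months, further downstream (chr4:48061781-48061966, Fisher's exact p = 0.0137, adjusted p = 0.354). Bdnf, the neurotrophin, had 3 members. The first (chr2:109514874-109515554) was called in 19 animals at 4.87 to 11.4, the second (chr2:109532522-109532798) in 7 animals of 8 and 1 of 5 months (Fisher's exact p = 0.0272, adjusted p = 0.453) and the third (chr2:109533731-109534364) in 6 and 1 (Fisher's exact p = 0.0686). Egr1, Trib1 and Dusp6 were each called in 23 animals, Fosb in 22, Nr4a1 in 13 and Egr2 in 3.

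Of 24 glutamate receptor genes 8 had a member. Grik5, a kainate receptor subunit, was called in all 12 animals of 8 months and 6 of 5 months at low folds, 1.82 to 3.26 (Fisher's exact p = 0.0137, adjusted p = 0.354). The NMDA receptor subunits were spread over the range, with Grin2c in 23 animals, Grin2a in 16, Grin1 in 11 and Grin2b in 4, and none passed an exact p = 0.05. On the presynaptic side 15 of 39 genes held 16 members. Erc1, a scaffold of the active zone (chr6:119797904-119798410), was called in 12 animals of 8 and 5 of 5 months at 2.56 to 8.09 (Fisher's exact p = 0.00458, adjusted p = 0.291). On the postsynaptic side 1 of 17 members passed, in Shank2, with 8 animals of 8 and 2 of 5 months. GABA synapse genes held 9 members, voltage-gated channels 13 and genes of cyclic nucleotide, CREB and TrkB signalling 16, and 0, 1 and 2 of these passed, all with more calls at 8 months (Kcnip4, Ntrk2 and Pde4a).

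Genes that the study listed for Huntington's disease held 27 members in 21 of 42 genes. This list was chosen by the study on these samples and is not independent evidence. Itga7, an integrin chain, was called in 11 KI and 5 WT animals (Fisher's exact p = 0.0272, adjusted p = 1), and 1 member each of Grb2, Kcnip4 and Ntrk2 passed with more calls at 8 months. Splicing factors held 15 members in 13 of 53 genes, among them Rbfox3, the neuronal nuclear antigen, with a region inside the gene (chr11:118531920-118532200) called in 7 animals of 8 months and 0 of 5 months (Fisher's exact p = 0.00458, adjusted p = 0.291), and Srsf9, called in 8 and 2. Translation factors held 9 members and stress genes 8. Pabpc1, the poly(A)-binding protein, was called in 10 animals of 8 and 3 of 5 months, Bag3, a co-chaperone, in 10 and 4, and 1 of the members of Atf5, a transcription factor of the stress response, in 9 naive and 3 trained animals. The respiratory chain held 5 members with 0 passing.

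Marker lists of cell types were short, with 10 to 20 genes each, and members are given beside the genes of the list with any region. Genes of hippocampal neurons held 7 members in 7 of 18 genes. Only Neurod6, a transcription factor of excitatory neurons, passed an exact p = 0.05, with calls in 8 KI and 2 WT animals (Fisher's exact p = 0.0361, adjusted p = 1). Cpne4, with 2 KI and 3 WT animals, and Ociad2, with 1 and 2, leaned the other way, and the rest of these members toward KI mice. Astrocyte genes held 7 members in 6 of 13 genes, oligodendrocyte genes 4 in 4 of 14 and interneuron genes 2 in 2 of 11. Microglia and endothelium held 1 each, in 1 of 10 and 1 of 9 genes, and the choroid plexus 0 in 8 genes. No marker outside the hippocampal neurons passed an exact p = 0.05 for any factor. Over all protein-coding genes with any region 15.2% had a member, and mRNA level was not held equal.

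Genes with a member often had m6A elsewhere as well. Of the 2081 genes, 836 (40.2%) had a CDS region and 777 (37.3%) a 3'UTR region called in all 24 animals, beside 29.8% and 24.6% of the 13663 protein-coding genes with any region. Both are descriptions, and the level of the mRNAs was not held equal.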

How the data were processed

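Hippocampal RNA of 24 mice gave 48 libraries, an m6A-IP and an input each. The authors aligned reads to mm9 with STAR 2.7.3a and called peaks of each IP against its input with MACS2 2.2.6. Each deposited peak list gives a score, the fold enrichment (a ratio) at the summit, the −log10 p and −log10 q as MACS2 wrote them, and the summit offset. These deposited values were used as given. The 10 deposited tables of the authors' DiffBind 2.8.0 comparisons hold levels, fold changes and p-values of single peaks and were not used. Regions were annotated here with the GENCODE gene models of NCBIM37, which is mm9. Of several peaks of an animal in a region, the one with the highest −log10 p gave fold and summit, and the median summit over animals set a member's window. Tests were run with Python 3.11.15, numpy 2.4.6 and scipy 1.17.1, sequences read with pysam 0.24.0, and tests checked on simulated data.

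Members and gene lists were chosen with earlier results of these data known. Named members are, by rule, the 4 with the smallest Fisher p per factor and direction (ties by the difference in animals, then fold), the leader by fold of each pair and direction, the 5 highest folds, and members of list genes.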

Additional observations from a re-analysis of the deposited data

Results flagged for a closer look

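The share of members among the variable regions of an animal had a change with training at 8 months that differed between the genotypes before adjustment, by 1.01 percentage points (exact permutation p = 0.025, adjusted p = 0.1 over 4 tests). Trained KI mice were higher than naive KI mice by 0.331 points and trained WT mice differed from naive WT mice by -0.674 points. Leaving out 1 of the KI animals Ctrl-245-KI, Ctrl-372-KI, TR-241-KI or TR-294-KI gave 0.908, 0.963, 0.919 and 0.830 points with exact permutation p = 0.07, 0.065, 0.065 and 0.065, and equal numbers of best peaks gave 0.478 points (exact permutation p = 0.265).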

How the results depend on the processing

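With equal numbers of best peaks the difference in members called was 42.9 between KI and WT mice, 87.1 between ages and 58.8 between trained and naive mice, the last with the sign turned. The 8-month interaction in members turned to 131 and the one in share was 0.478 (unadjusted exact p = 0.265, against 0.025). Fisher counts became 13 (KI), 3 (WT), 12 (trained), 4 (naive), 39 (8 months) and 8 (5 months), and counts of 3 against 0 animals 48, 29, 34, 23, 71 and 30. With −log10 q of at least 3 the 5-month interaction in members turned to 5.67, the 8-month share interaction was 0.831 (unadjusted exact p = 0.055), the difference in peak length to CDS regions turned to -0.75 bp, Fisher counts were 37 (KI), 3 (WT), 7 (trained), 10 (naive) and 5 (5 months), and 3 against 0 counts 48 (naive) and 128 (8 months). With summit windows joined, Fisher counts were 3 (WT), 3 (trained) and 8 (5 months), and a stratified test gave 0 for 5 months. With members of up to 60% GC, chosen after seeing the data, the age difference in share was 0.239 (unadjusted exact p = 0.00435), the 5-month interaction in members 54.7, the 8-month share interaction 0.0819 (unadjusted exact p = 0.525), and Fisher counts 13 (KI), 0 (trained), 8 (naive), 73 (8 months) and 0 (5 months). The causes were not tested.

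Leaving out 1 animal in turn gave a genotype difference in share of -0.175 to 0.485, turned without animals Ctrl-2199-WT, TR-2216-WT and TR-2202-KI, a 5-month interaction in members of -228 to 218, and an 8-month share interaction of 0.830 to 1.27. Fisher counts ranged over 62 to 113 (KI), 1 to 4 (WT), 1 to 5 (trained), 18 to 43 (naive), 170 to 260 (8 months) and 1 to 3 (5 months). The main counts of 57 (KI), 16 (naive) and 162 (8 months) lay below these ranges, since unequal groups change which splits pass. Counts of 3 against 0, where a left-out animal leaves 2 of 2, added after seeing the data, ranged over 137 to 259 (KI), 15 to 58 (WT), 17 to 49 (trained), 88 to 221 (naive), 201 to 357 (8 months) and 13 to 44 (5 months). A rule of 2 of 2 can only keep or raise a count. Neither set of ranges therefore measures how stable the main counts are. Read depth is not known from the files used here, and precision is limited by 3 animals per condition. No paired analysis was possible because each animal belongs to 1 condition.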
